A study of Mus musculus with 9 samples.

Results

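The transcripts of 9 pituitary genes were measured in libraries of mouse trigeminal ganglion (TG), the sensory ganglion of the face and jaw. The genes were Gh, Prl, Pomc, Cga, Lhb, Fshb and Tshb, which encode hormones or hormone subunits, and Pou1f1 and Ghrhr, which encode a transcription factor and a receptor of the hormone-producing cells. They were chosen by their measured values, because their levels stood apart in saline replicate 3 and CFA6D replicates 4 and 5, so the levels below describe these libraries and are not a test of that pattern. The 9 genes were 9 of 21835 genes with a transcript in the mRNA table, and all 9 were among the 16110 genes whose FPKM averaged 0.1 or more across the libraries. FPKM is the number of sequenced fragments of a transcript, divided by its length in kilobases and scaled to the library's mapped fragments, and the FPKM of a gene here is the sum over its transcripts.

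The study injected the temporomandibular joint (TMJ) of 8-week-old wild-type male C57BL/6 mice on 1 side, under isoflurane, with 10 µl of saline or of complete Freund's adjuvant (CFA, 5 mg/ml), an oil with killed mycobacteria that inflames the joint. The TG was collected on day 3 after saline (Saline, replicates 1 to 3), on day 3 after CFA (CFA3D, replicates 1 to 3) and on day 6 after CFA (CFA6D, replicates 4 to 6). The labels give no saline group of day 6. Each library was made from TG punches pooled from 3 mice, so the 3 libraries of a group are separate pools, and differences between mice within a pool cannot be seen. The steps between FPKM values of short and long transcripts placed the depth at about 30.0 to 42.2 M read pairs per library, with the lowest depths in saline replicates 1 and 2.

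The anterior pituitary holds cell types that are each named for a hormone. Somatotrophs make growth hormone (Gh) under the drive of the receptor Ghrhr, lactotrophs make prolactin (Prl), thyrotrophs make thyrotropin (Tshb with Cga), gonadotrophs make luteinizing and follicle-stimulating hormone (Lhb or Fshb with Cga), and corticotrophs make ACTH from Pomc. The intermediate lobe, which is well developed in mice, consists mainly of melanotrophs, which cut the Pomc precursor to melanocyte-stimulating hormone. Pou1f1 (Pit-1) is the transcription factor that somatotrophs, lactotrophs and thyrotrophs share, and it binds the promoters of Gh, Prl and its own gene. The gland lies on the floor of the skull between the trigeminal ganglia.

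The promoters of Prl, Pou1f1 and Pomc are shown because these genes stand for the different library patterns described below: Prl and Pou1f1 followed Gh, and Pomc did not. The sequences are from RefSeq (GRCm38.p6), run 5′ to 3′ on the plus strand of the genome, which is the strand of all 3 genes, and reach from 250 bases before the start site to 50 bases after it. Capitals mark the letters TATNCAT, a core of the Pou1f1 binding motif, searched on both strands.
Prl, chr13:27057320-27057619, plus strand: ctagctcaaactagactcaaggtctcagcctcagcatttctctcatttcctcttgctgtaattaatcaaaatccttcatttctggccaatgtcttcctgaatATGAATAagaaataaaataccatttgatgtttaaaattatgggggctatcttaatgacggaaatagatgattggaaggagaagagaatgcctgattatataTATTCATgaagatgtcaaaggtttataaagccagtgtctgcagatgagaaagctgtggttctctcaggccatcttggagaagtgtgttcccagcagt
Pou1f1, chr16:65520262-65520561, plus strand: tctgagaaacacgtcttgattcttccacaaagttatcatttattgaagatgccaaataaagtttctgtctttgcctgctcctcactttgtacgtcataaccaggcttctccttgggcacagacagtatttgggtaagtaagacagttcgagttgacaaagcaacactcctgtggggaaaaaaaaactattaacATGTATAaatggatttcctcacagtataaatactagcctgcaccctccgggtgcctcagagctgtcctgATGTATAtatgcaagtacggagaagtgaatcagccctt
Pomc, chr12:3954695-3954994, plus strand: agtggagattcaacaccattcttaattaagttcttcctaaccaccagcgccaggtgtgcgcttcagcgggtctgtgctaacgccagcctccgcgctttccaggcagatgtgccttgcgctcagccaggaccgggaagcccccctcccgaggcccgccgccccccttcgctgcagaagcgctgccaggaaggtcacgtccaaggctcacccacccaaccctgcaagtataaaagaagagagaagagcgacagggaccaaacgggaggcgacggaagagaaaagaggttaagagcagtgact
Positions are distances in bases from the first transcribed base, negative before it. The motif lay at -148 to -142 and at -47 to -41 in Prl, and at -57 to -51 and 12 to 18 in Pou1f1. The same letters were in 8.84% of the 32851 promoters of the RefSeq table. They were not in the windows of Pomc, Cga, Lhb, Fshb and Tshb, nor in that of a second Pou1f1 start site. The letters AAGGTCA, a motif of Nr5a1, the gonadotroph factor, were in Lhb (-129 to -123) and in Pomc (-63 to -57) and in 4.72% of all promoters. A match of this kind describes the sequence only. The table held promoters of 7 of the 9 genes, and Gh and Ghrhr were not among them.

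Gh (chr11:106300271-106301865, minus strand, GENCODE M21 on GRCm38) had the highest level of the 9 genes. It was at 9120 FPKM in saline replicate 3, where it was the most abundant gene of the mRNA table, at 92.7 FPKM in saline replicate 1 and at 7.33 FPKM in saline replicate 2. In the CFA3D libraries it was at 18.3, 5.10 and 5.21 FPKM, and in CFA6D replicates 4, 5 and 6 at 742, 44.6 and 29.2 FPKM. Saline replicate 3 was thus 12.3-fold above CFA6D replicate 4 and 98.4-fold above the highest of the 6 libraries outside the rule. The saline libraries overlapped with those of both CFA groups. Every CFA3D library was below every CFA6D library, which was also so for Prl, Pomc and Cga. The share of all genes with such an order was not counted. The saline mean of 3073 ± 5237 FPKM (SD, n = 3) had an SD larger than itself.

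Ghrhr (chr6:55376295-55388530), the receptor for growth hormone-releasing hormone, was far lower than Gh on the FPKM scale and followed the same order at the top. It was at 12.3 FPKM in saline replicate 3, 1.10 FPKM in CFA6D replicate 4 and at most 0.212 FPKM elsewhere, and 3 of the 6 libraries outside the rule listed it at 0. CFA6D replicate 5, which held 0.0897 FPKM or about 7.5 read pairs, did not stand out for this gene, just as its Gh level did not exceed that of saline replicate 1.

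Prl (chr13:27057570-27065205) was at 1083 FPKM in saline replicate 3 and at 3.35 and 0.304 FPKM in saline replicates 1 and 2. The CFA3D libraries held 0.633, 0.700 and 0.557 FPKM, and CFA6D replicates 4, 5 and 6 held 80.7, 8.77 and 2.65 FPKM. As with Gh, saline replicate 3 was the highest library by a wide margin (13.4-fold) and CFA6D replicate 4 the second, but here CFA6D replicate 5 was 2.61-fold above the highest library outside the rule. The transcript ENSMUST00000018061 gave 824 FPKM of the Prl sum in saline replicate 3. Another transcript, ENSMUST00000224228, was not concentrated there: it was at 0.219 FPKM in saline replicate 3, at 1.42 FPKM in saline replicate 1, at 0.224 to 0.400 FPKM in the CFA3D libraries, at 1.65 FPKM in CFA6D replicate 4 and at 1.50 FPKM in CFA6D replicate 6. It was the largest Prl transcript in saline replicate 1, CFA3D replicates 1 and 2 and CFA6D replicate 6. The Prl levels, shares and ratios to Gh of these libraries below rest in good part on it.

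Pou1f1 (chr16:65520511-65535005) was at 15.6 FPKM in saline replicate 3, 0.951 FPKM in CFA6D replicate 4 and 0.263 FPKM in CFA6D replicate 5. In the 6 libraries outside the rule it was between 0 and 0.0593 FPKM, with at most 4.4 read pairs in a library, a depth at which differences among these 6 were not detectable. The transcript ENSMUST00000176330 carried 73.7% of the sum in saline replicate 3 and was listed at 0 in all 6 of those libraries.

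**Figure D1:**
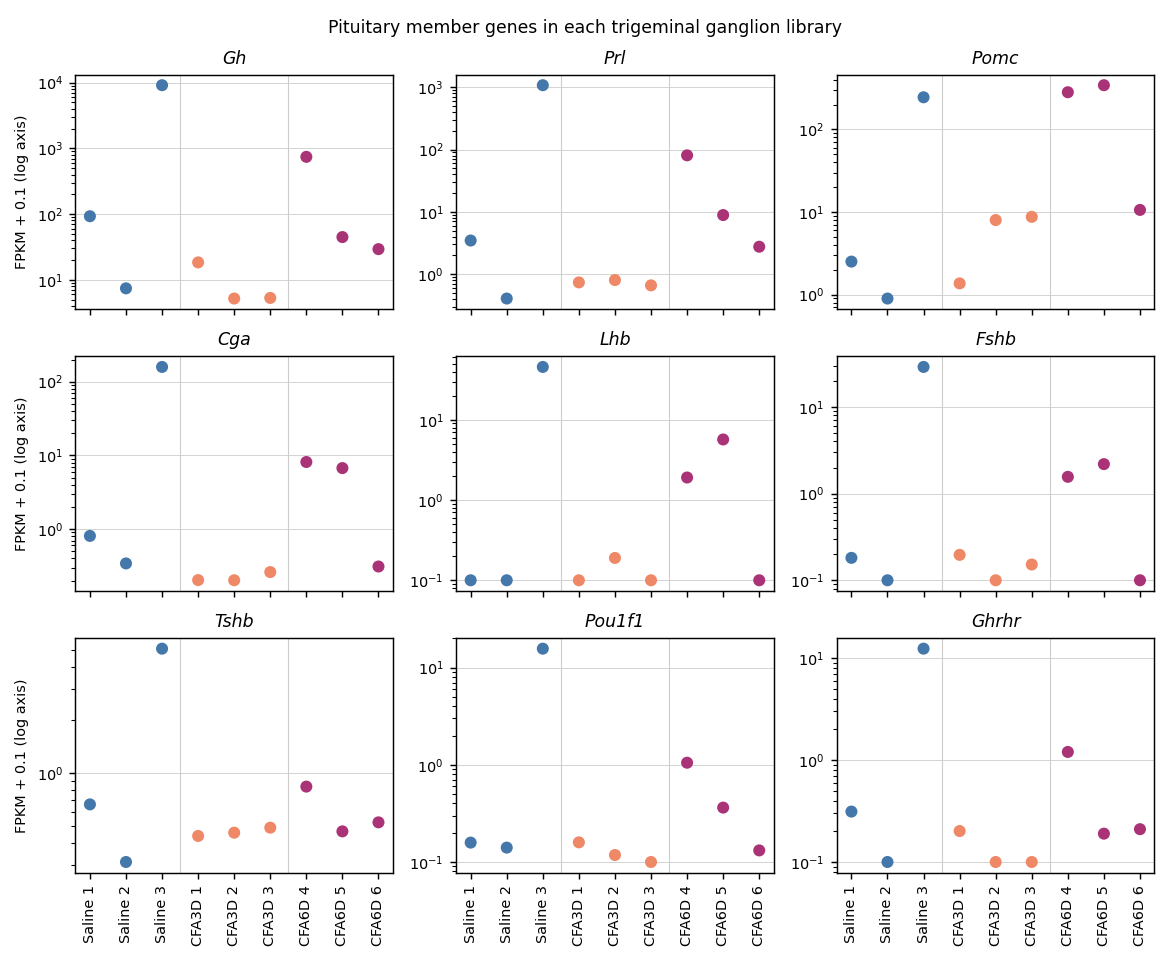
Level of each of the 9 pituitary genes in every library, as FPKM + 0.1 on a log axis, with a point per library coloured by group (saline blue, CFA3D orange, CFA6D purple). Saline replicate 3 is the highest point for 8 genes, and for Pomc it lies with CFA6D replicates 4 and 5, between 245 and 343 FPKM.

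Pomc (chr12:3954951-3960642), the precursor of ACTH and melanocyte-stimulating hormone, had a different pattern from that of Gh. It was at 245 FPKM in saline replicate 3, 282 FPKM in CFA6D replicate 4 and 343 FPKM in CFA6D replicate 5, so the highest and lowest of these were within 1.40-fold of each other, whereas Gh differed 204-fold between the same libraries. Saline replicates 1 and 2 held 2.42 and 0.798 FPKM, the CFA3D libraries 1.27, 7.90 and 8.66 FPKM, and CFA6D replicate 6 10.5 FPKM. The 3 libraries named in the rule therefore stood together and at least 23.3-fold above every other library, and within the rest CFA3D replicates 2 and 3 and CFA6D replicate 6 were above saline replicates 1 and 2 and CFA3D replicate 1. The reads behind the 3 high values were about 9820, 11060 and 12920 pairs, with exact Poisson 95% intervals of 9627 to 10020, 10860 to 11270 and 12700 to 13150, so that counting error alone does not cover the differences between them. Such intervals cover counting error only. The sum was carried by the transcripts ENSMUST00000218089 (126, 160 and 193 FPKM) and ENSMUST00000020990 (113, 116 and 146 FPKM), and both had their highest value in CFA6D replicate 5.

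Cga (chr4:34893779-34907370) encodes the alpha subunit that the gonadotropins and thyrotropin share. It was at 158 FPKM in saline replicate 3 and at 8.04 and 6.63 FPKM in CFA6D replicates 4 and 5. Saline replicates 1 and 2 held 0.709 and 0.242 FPKM, CFA6D replicate 6 held 0.211 FPKM, and the CFA3D libraries held 0.103, 0.102 and 0.161 FPKM. These CFA3D values rest on 2.8 to 4.0 read pairs each, close to the level of 3 read pairs, about 0.104 to 0.121 FPKM for this gene.

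Lhb (chr7:45420820-45421897) and Fshb (chr2:107056140-107059656), the beta subunits of the gonadotropins, were found in the 3 libraries named in the rule and hardly anywhere else. Lhb was at 45.5 FPKM in saline replicate 3, 1.81 FPKM in CFA6D replicate 4 and 5.59 FPKM in CFA6D replicate 5, and it was listed at 0 in 5 of the 6 other libraries, the exception being CFA3D replicate 2 with about 2.4 read pairs. Fshb was at 28.9, 1.46 and 2.09 FPKM in the same 3 libraries, was listed at 0 in 3 of the other 6 and did not exceed 6.5 read pairs in any of them. For both genes CFA6D replicate 5 was above CFA6D replicate 4, the reverse of the order of Gh, Prl, Pou1f1 and Ghrhr.

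Tshb (chr3:102775465-102782718), the beta subunit of thyrotropin, was at 4.96 FPKM in saline replicate 3 and between 0.213 and 0.737 FPKM in the other 8 libraries. Its floor came from a single-exon transcript annotated as a retained intron, ENSMUST00000196958. This transcript was present in all 9 libraries (0.196 to 0.474 FPKM) and varied far less than the coding transcripts. It was highest in CFA6D replicate 4 and saline replicate 3. The protein-coding transcripts summed to 4.49 FPKM in saline replicate 3, to 0.301 FPKM in saline replicate 1, to 0.263 FPKM in CFA6D replicate 4 and to between 0 and 0.0859 FPKM in the remaining libraries. Counted over coding transcripts, saline replicate 3 was therefore 14.9-fold above the next library instead of 6.72-fold. Outside saline replicate 3, the retained intron was the larger part of the summed value in every library except saline replicate 1. There it was at 0.264 FPKM, below the coding sum.

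**Figure D2:**
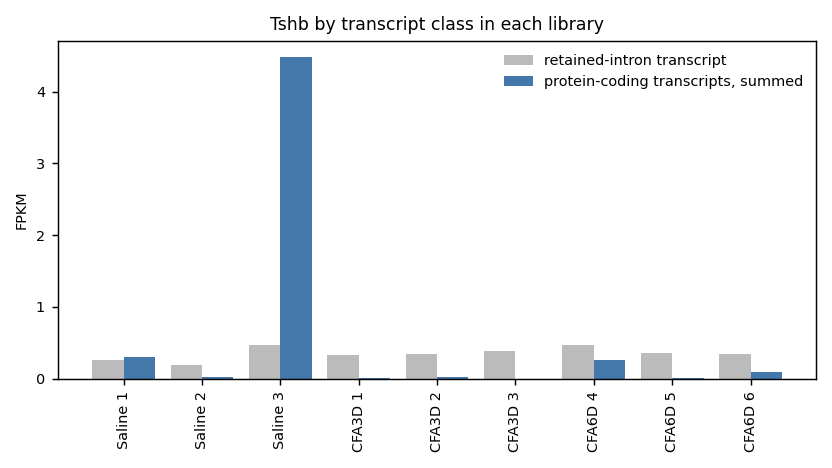
FPKM of Tshb in each library, split into its retained-intron transcript (grey) and the sum of its protein-coding transcripts (blue). The grey bars lie between 0.196 and 0.474 FPKM in all 9 libraries, and the blue bar reaches 4.49 FPKM in saline replicate 3 and at most 0.301 FPKM elsewhere.

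The proportions among the 7 hormone genes differed between the libraries that held the most of them. In saline replicate 3 the hormone genes summed to 10690 FPKM, of which Gh made up 85.4%, Prl 10.1%, Pomc 2.29%, Cga 1.48%, Lhb 0.426% and Fshb 0.271%. In CFA6D replicate 4 the sum was 1117 FPKM, with 66.5% Gh, 7.23% Prl, 25.2% Pomc and 0.720% Cga. In CFA6D replicate 5 it was 411 FPKM, with 83.4% Pomc, 10.9% Gh, 2.13% Prl, 1.61% Cga and 1.36% Lhb. Gh thus led in saline replicate 3 and CFA6D replicate 4, and Pomc led in CFA6D replicate 5. The ratio of Pomc to Gh was 0.0269, 0.380 and 7.68 in these 3 libraries, while the level of Prl stayed at 11.9%, 10.9% and 19.6% of that of Gh, a much narrower range.

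The 6 other libraries, with hormone sums of 8.89 to 99.8 FPKM, had no common proportions either. Gh made up 92.9%, 82.5% and 88.2% of the sum in saline replicates 1 and 2 and CFA3D replicate 1, and Pomc at most 8.99%. In CFA3D replicates 2 and 3, Pomc made up 55.4% and 57.6% and Gh 35.8% and 34.7%, and in CFA6D replicate 6 Gh made up 67.9% and Pomc 24.4%. The share of Prl was between 3.05% and 6.15% in all 6. The groups of the study did not separate by these proportions, since a library with mostly Gh occurred in each group. Taken over all mRNA, the 9 genes made up 4.55% of the summed FPKM in saline replicate 3, 0.473% in CFA6D replicate 4, 0.174% in CFA6D replicate 5 and 0.00390% to 0.0410% in the others. In tissue pools such as these, fewer cells of a type and less RNA per cell cannot be told apart.

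**Figure D3:**
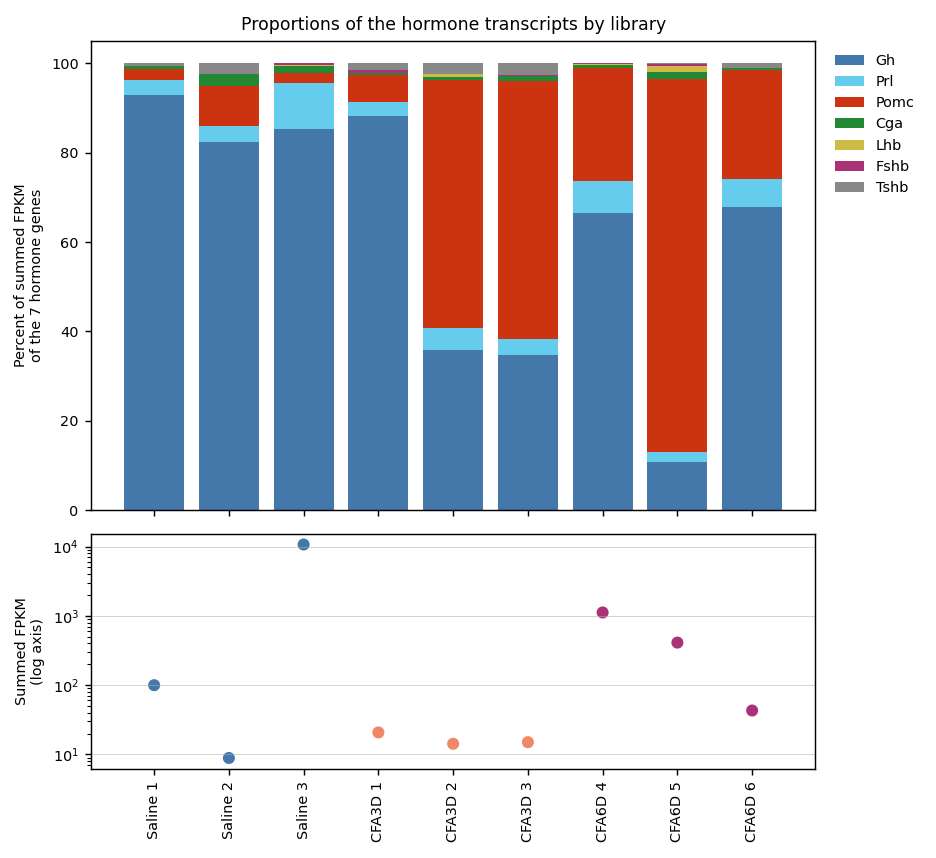
Upper panel, share of each hormone gene in the summed FPKM of the 7 hormone genes, stacked to 100 percent for each library. Lower panel, that sum in FPKM on a log axis, coloured by group. Gh fills 85.4% of the bar of saline replicate 3 and Pomc 83.4% of that of CFA6D replicate 5, and the sum spans 8.89 to 10690 FPKM.

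Between genes, likeness over the 9 libraries was described by Pearson's r of log2(FPKM + 0.1), without a p-value, since all genes share the same libraries and saline replicate 3 weighs on each r. Gh was most like Ghrhr (r = 0.979, n = 9) and Prl (r = 0.974), and Lhb was most like Fshb (r = 0.977). Pomc was less like Gh (r = 0.675) than like Lhb (r = 0.874). Outside the members, the 10 genes most like Gh included Aak1 (r = 0.961), Dlk1, Bex4, Krt18, Slc10a4, Pld3, Cdh13, Hap1 and Insm1 (r = 0.928). Dlk1, an imprinted gene of the anterior pituitary and other tissues, was at 21.9 FPKM in saline replicate 3, at 2.73 and 1.51 FPKM in CFA6D replicates 4 and 5 and at 0.416 to 0.760 FPKM elsewhere. Aak1, a kinase gene that many tissues express, changed far less in size, from 16.1 to 22.7 FPKM.

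The 10 genes most like Pomc were Oacyl (r = 0.947), Rai2, Wiz, Celf6, Drd2, Tbx19, Zfp92, Wdr6, Zfp281 and Ddx42 (r = 0.894). Tbx19 (Tpit), the transcription factor that corticotrophs and melanotrophs need for Pomc, was at 1.60, 0.651 and 0.847 FPKM in saline replicate 3 and CFA6D replicates 4 and 5 and at most 0.0698 FPKM elsewhere. Drd2, the dopamine receptor of lactotrophs and melanotrophs, was at 1.85, 1.44 and 1.26 FPKM in these libraries and at 0.363 to 0.629 FPKM in the others. Oacyl was at 1.24, 3.07 and 3.84 FPKM, the same order as Pomc, and at 0.121 to 0.256 FPKM in the others.

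The other genes of the pituitary were read from 4 lists of 35 genes, of which 25 reached a mean of 0.1 FPKM. Of these, 18 (72.0%) had their highest level in saline replicate 3, against 11.5% of all 16110 genes, and in 10 (40.0%) the 3 libraries named in the rule were the highest 3, against 0.987% of all genes. These counts come from the libraries that chose the members and are a description. The filter on the mean also admits genes through saline replicate 3 alone. An example picked after its values were seen is Neurod4, at 1.21 FPKM there and at most 0.0892 FPKM elsewhere. The counts of tested factors and receptors therefore lean toward that library. Among 8 transcription factors tested, 7 were highest in saline replicate 3. Gata2, a factor of gonadotrophs and thyrotrophs that other cells also express, was the only factor with a mean of at least 1 FPKM and did not follow the pattern, with 3.04 FPKM in saline replicate 3, 3.18 FPKM in CFA3D replicate 2 and 0.794 FPKM in CFA6D replicate 4.

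Further genes were picked after their values were seen. Pitx1, which acts in all anterior lineages, was at 5.53, 0.917 and 0.724 FPKM in saline replicate 3 and CFA6D replicates 4 and 5. Lhx3, a factor of pituitary progenitors, was at 3.37, 0.606 and 0.541 FPKM. Elsewhere they were at most 0.351 and 0.186 FPKM. Nr5a1 was at 1.16, 0.0735 and 0.0867 FPKM and at most 0.0425 FPKM elsewhere. The gonadotroph receptor Gnrhr was at 3.45, 0.230 and 0.214 FPKM in the same order and at most 0.0376 FPKM elsewhere. Of 5 receptors tested, 4 were highest in saline replicate 3. The exception, Sstr2, was at 0.727, 0.941 and 0.997 FPKM in these libraries. Pax7, the factor that marks melanotrophs within the Pomc lineage, was at 0.114 FPKM in saline replicate 3 but at 0.361 and 0.231 FPKM in CFA6D replicates 4 and 5, and at most 0.0125 FPKM elsewhere. It was thus higher in CFA6D replicates 4 and 5 than in saline replicate 3, unlike Tbx19, but its mean was below 0.1 FPKM and it was not among the genes fitted.

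**Figure D4:**
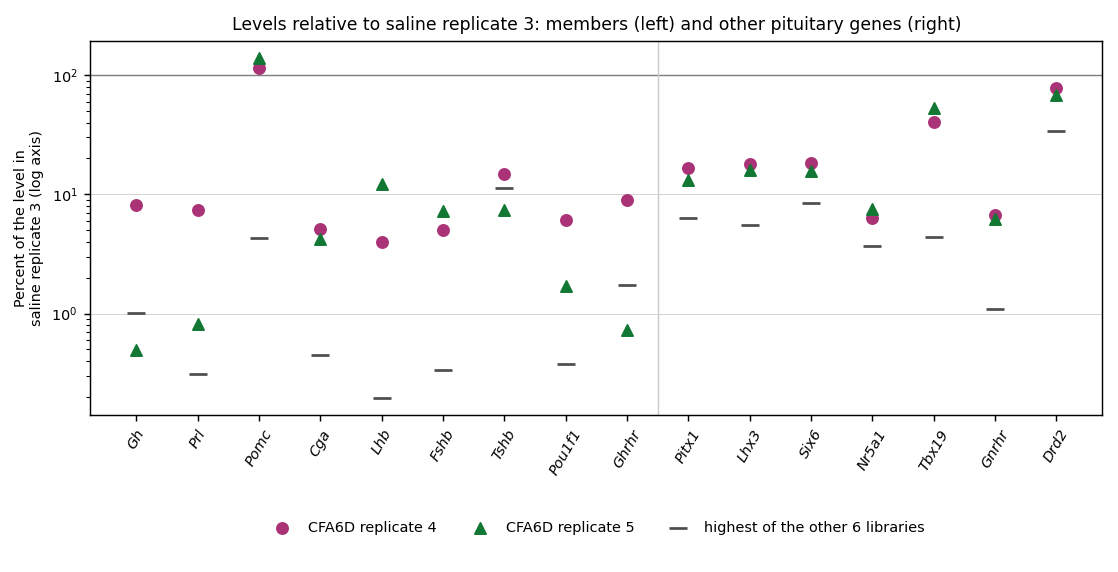
Level of each gene in CFA6D replicate 4 (circles) and CFA6D replicate 5 (triangles) as a percent of its level in saline replicate 3, on a log axis, with a bar at the highest of the other 6 libraries. The members are on the left, other pituitary genes on the right. Pomc lies above 100% in both libraries (115% and 140%), Gh at 8.14% and 0.489%, and the gonadotroph genes Lhb and Fshb are higher in replicate 5 than in replicate 4.

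Genes of hormone processing and secretory granules, which sensory neurons also use, differed less. The carboxypeptidase Cpe was even over the libraries (133 to 165 FPKM) and the amidating enzyme Pam was between 35.8 and 51.4 FPKM. The granule proteins Chga and Scg2 were highest in saline replicate 3, at 108 and 105 FPKM, with 1.32-fold and 2.82-fold of the next library, and Scg5 was at 52.7 FPKM there and at 30.2 to 36.5 FPKM elsewhere. Esr1, the estrogen receptor, was at 6.43 FPKM in saline replicate 3 and at 1.93 to 2.84 FPKM in the others. The hormones of the posterior lobe did not follow the 9 genes. Oxt was at 0.185 FPKM in saline replicate 3 and at 12.3 FPKM in CFA6D replicate 5, and Avp was highest in CFA3D replicate 2 (8.79 FPKM) and lowest in saline replicate 3 (0.880 FPKM).

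Markers of the ganglion were present in all libraries. The 12 trigeminal neuron markers summed to 1588 FPKM in saline replicate 3 and to 1862 to 2418 FPKM in the other 8 libraries, and Nefl, the most abundant, was at 471 FPKM there against 532 to 685 FPKM. The 8 markers of satellite glia and Schwann cells summed to 3104 FPKM in saline replicate 3, within the 2852 to 3678 FPKM of the rest. Summed markers of other tissues were highest in other libraries. Skeletal muscle markers, led by Acta1, summed to 147 FPKM in saline replicate 2 and 57.8 FPKM in CFA6D replicate 6 against 3.68 FPKM in saline replicate 3. Brown fat markers, led by Cidea, summed to 56.0 FPKM in saline replicate 2 against 8.11 FPKM in saline replicate 3. Brain and choroid plexus markers, led by Slc17a7, summed to 48.4 FPKM in CFA6D replicate 6 against 28.0 FPKM in saline replicate 3. Blood and bone marrow markers, led by Hba-a1, summed to 5819 FPKM in saline replicate 2 against 2217 FPKM in saline replicate 3. Some markers, picked after their values were seen, did not follow the sum of their list. S100a9 of the blood and marrow list was at 1024 FPKM in CFA6D replicate 6 and 32.5 FPKM in saline replicate 2. Gad2 and Kl of the brain list were highest in saline replicate 3, at 0.573 and 1.31 FPKM. The part of any of these tissues in the levels of the pituitary genes was not tested.

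Whether the pituitary genes differed between CFA and saline was read from a limma fit on log2(FPKM + 0.1) over all 16110 genes, where a gene was called if its unadjusted p was below 0.05 and its log2 fold change was 1 or more in either direction. These contrasts hold the libraries that chose the genes, so the values are descriptions. On CFA3D against saline 0 of the 9 genes were called, and 0 had an unadjusted limma p under 0.05, while 0.341% of all genes (55) were called. All 9 fold changes were negative: -4.53 ± 2.22 (log2, SE) for Gh, -4.00 ± 2.07 for Cga, -3.98 ± 2.41 for Prl, -2.64 ± 2.26 for Lhb, -2.53 ± 1.52 for Ghrhr, -2.51 ± 1.59 for Pou1f1, -2.49 ± 1.95 for Fshb, -1.14 ± 0.82 for Tshb and -0.84 ± 2.03 for Pomc. Their standard errors, 0.822 to 2.415, compare with a median of 0.153 over all genes. The saline and CFA3D libraries did not overlap for 1 of the 9 genes, Cga, while this was so for 9.13% of all genes.

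On CFA6D against saline, again 0 of 9 were called and 0 had an unadjusted limma p under 0.05, with 0.596% of all genes (96) called. Pomc had the largest fold change in size, 3.62 ± 2.03 (log2, SE), and the other 8 lay between -1.01 (Ghrhr) and 0.42 (Lhb). The libraries overlapped for all 9 genes, against 16.2% of all genes whose groups did not overlap. Both contrasts share the saline libraries. Between the CFA days, which do not share them, all 9 genes were higher on day 6. Pomc had the largest log2 difference, 4.46 ± 2.03 (SE), with a limma p of 0.0541 and an adjusted p of 0.676. Prl followed at 4.11, Gh at 3.63 and Cga at 3.54, and Tshb had the smallest difference, 0.35. The limma p-values of the other 8 genes were 0.121 to 0.679. The day 6 group holds libraries named in the rule, so these values are descriptions too and not a test of a day effect.

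Saline replicate 3 weighed heavily on the fold changes against saline. Without it, the fold changes of CFA3D against saline moved to -1.72 for Gh, -0.70 for Prl and -1.25 for Cga, and those of Pomc (1.61), Lhb (0.31), Fshb (0.10) and Tshb (0.02) turned positive, with none called. On CFA6D all 9 were then positive. Pomc (6.07 ± 1.48), Prl (3.41 ± 1.32) and Lhb (3.36 ± 1.40) were called, with adjusted limma p-values of 0.219, 0.400 and 0.431. In all, 147 genes were called under that setting. The libraries of the rule then left were CFA6D replicates 4 and 5. A rise on CFA6D therefore follows from how the genes were chosen and is not a result about them. Without saline replicate 2, in contrast, 5 of the 9 were called lower on CFA3D (Gh, Prl, Cga, Tshb and Ghrhr), beside 88 genes called in all, and without CFA6D replicate 6 Pomc was called on CFA6D, beside 159 in all. Leaving out saline replicate 3 turned the sign of 4 of the 9 fold changes on CFA3D and of 6 of the 9 on CFA6D. Every refit holds libraries named in the rule and filters the genes anew. Its calls are therefore descriptions, and its counts are not shares of the 16110 genes.

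**Figure D5:**
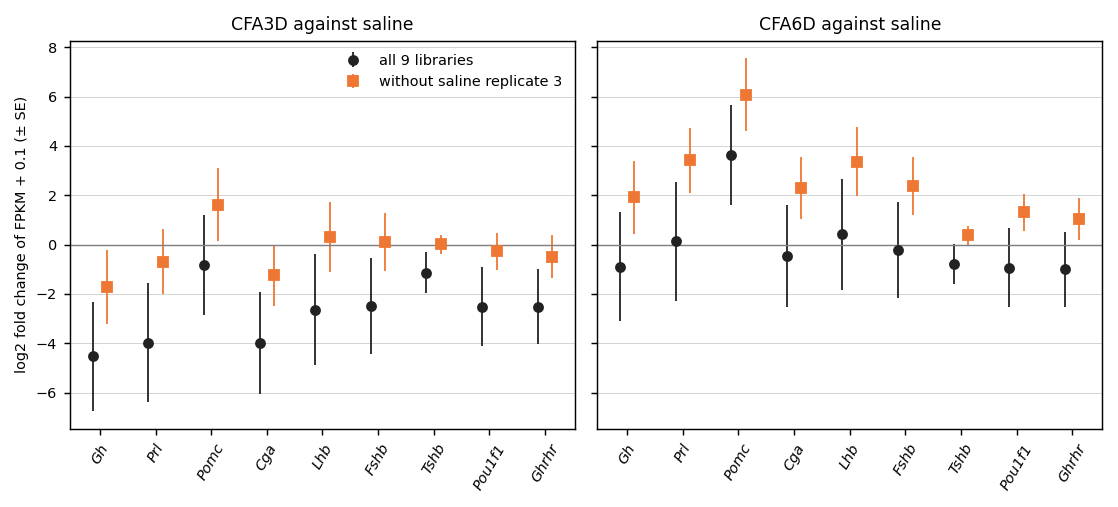
Log2 fold change of FPKM + 0.1 against saline (limma, bars show SE) for each of the 9 genes, on CFA3D (left) and CFA6D (right), with all 9 libraries (black) and without saline replicate 3 (orange). Leaving out that library moves every gene upward, for Gh from -4.53 to -1.72 on CFA3D and from -0.90 to 1.92 on CFA6D.

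Of the 25 genes of the pituitary lists, 1 was called on CFA3D, beside 0.341% of all genes. It was Avp, with a log2 fold change of 2.27 ± 0.63 (SE) and an adjusted p of 0.997 from limma. On CFA6D again 1 was called, beside 0.596% of all genes. This was the granule peptide gene Vgf, with a log2 fold change of 1.21 ± 0.21 and an adjusted p of 0.0996 from limma. Both were higher after CFA, and neither was highest in saline replicate 3. The median log2 fold change of the 25 was -0.37 on CFA3D and -0.05 on CFA6D, beside 0.05 and 0.03 over all genes, and that of the 9 members was -2.53 and -0.46.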

How the data were processed

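RNA of TG punches, pooled from 3 mice per library, was sequenced in 9 libraries. The study's methods describe rRNA depletion and a stranded total RNA kit, whereas the labels name a TruSeq RNA kit, so whether unspliced RNA and strand were kept is not settled, which bears on the retained-intron transcript of Tshb. The authors deposited FPKM values per transcript and library, and what they are scaled to is known from that unit only. The study's methods name trimming with Trimmomatic, mapping to GRCm38 and CLC Genomics Workbench, whereas the submitters' processing notes list Bowtie 0.12.2 and mm8. The transcript names were those of GENCODE M21 for 101539 of 102122 transcripts, so that annotation gave gene names and positions. The lncRNA and other noncoding RNA tables and the circRNAs were not used here, and 0 per-sample columns of the mRNA table were left out.

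FPKM was summed over the transcripts of a gene. The depth of a library (30.0 to 42.2 M read pairs) and approximate read pairs were recovered from the steps between FPKM values times transcript length. Intervals are exact Poisson intervals at 95%, and 3 read pairs was taken as the floor. Genes averaging 0.1 FPKM or more were fitted as log2(FPKM + 0.1) in limma 3.58.1 (R 4.3.3) with a mean trend and the 3 groups sharing the estimate of spread, with Benjamini-Hochberg adjustment over all 16110 genes. On this scale the change of low genes is understated. The code was tested on simulated data. Calls needed an unadjusted p below 0.05, the threshold the study used, together with a log2 fold change of 1 or more in either direction. Promoters and motifs were read from RefSeq with Python 3.11.15.

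The 9 genes, the gene lists and the tests were chosen with earlier results of these data known. Named genes were the 9 members in every library, the genes of each pituitary list with a mean of at least 1 FPKM (at most 5 by mean), the most abundant gene of each other list, the 10 genes most like Gh and like Pomc, and Avp and Oxt, except for genes that are not reported here. Genes named outside this rule are said in the text to have been picked after their values were seen. The alternatives were other pseudocounts and filters, quantile normalization, fits of 2 groups, the highest transcript of a gene in place of the sum, a replicate block, calls on p alone, and leaving out each library in turn.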

Additional observations from a re-analysis of the deposited data

How the results depend on the processing

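Of the fold changes of the 9 genes, 128 of 133 kept their sign under other settings and 142 of 162 when 1 library was left out. The Tshb fold change turned to 0.19 on CFA3D and 0.30 on CFA6D with the highest transcript, which is the retained intron, and those of Prl (-0.36) and Lhb (-0.44) on CFA6D turned with a pseudocount of 1 and that of Fshb (0.076) with a pseudocount of 0.01. With 1 library left out, the fold change on CFA3D lay between -2.44 and 1.61 for Pomc, -4.11 and 0.31 for Lhb, -3.99 and 0.10 for Fshb and -1.99 and 0.021 for Tshb, and that on CFA6D between -3.21 and 1.92 for Gh, -2.29 and 3.41 for Prl, -2.14 and 2.29 for Cga, -1.06 and 3.36 for Lhb, -1.71 and 2.38 for Fshb, -1.64 and 0.37 for Tshb, -2.09 and 1.31 for Pou1f1 and -2.44 and 1.04 for Ghrhr. The 55 genes called on CFA3D became 9 with a pseudocount of 1, 18 with a mean of at least 1 FPKM, 146 with the highest transcript, 717 with no fold change minimum and 46 to 108 with 1 library left out. The 96 called on CFA6D became 21, 39, 202, 1782 and 86 to 240 in the same order. Members called ranged over 0 to 5 on CFA3D and 0 to 3 on CFA6D with 1 library left out. Genes of the pituitary lists called on CFA3D were 2 with a pseudocount of 0.01, where 77 genes were called in all. They were 2 with no fold change minimum and 1 to 3 with 1 library left out. On CFA6D they were 2 with the highest transcript, 2 with no fold change minimum and 1 to 4 with 1 library left out. The median log2 ratio of Prl to Gh over the libraries was -3.20, and -4.23 with the highest transcript, and that of Cga to Gh was -5.85, and -4.13 with a pseudocount of 1. The cause of these changes was not tested.

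Saline and CFA3D libraries share replicate numbers, but same-numbered libraries did not deviate together (correlations of 0.0877, -0.078 and 0.0301 over genes), so the numbers were not taken as pairs. With a replicate block, 114 genes were called on CFA3D, among them 3 of the 9 members (Cga, Gh and Prl).

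Values under 3 read pairs, which is where Lhb, Fshb, Pou1f1 and Ghrhr lie in several libraries, do not resolve differences between those libraries.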

Other observations

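The genes that stood apart in a single library were counted after the data were seen, as genes at 1 FPKM or more and over 5-fold above each of the other 8 libraries on FPKM + 0.1. There were 27 in saline replicate 3, of which 8 were members and 5 were on the pituitary lists, among them Gnrhr, Neurod4, Nr5a1 and Pitx1. The other 14 included Igsf1, a membrane protein gene expressed in Pou1f1-lineage cells of the pituitary, at 10.8 FPKM against at most 0.764 FPKM elsewhere, and the epithelial genes Epcam (14.7 FPKM against at most 1.87 FPKM) and Krt18 (4.79 FPKM against at most 0.824 FPKM). In both epithelial genes the next libraries were CFA6D replicates 4 and 5. The glycine receptor gene Glra1 was at 7.83 FPKM in saline replicate 3, with 0.126 and 0.143 FPKM in CFA6D replicates 4 and 5 and 0.411 FPKM at most elsewhere, so it did not share the second rank of those libraries.

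By the same count there were 119 genes in CFA6D replicate 6, 14 in saline replicate 2, 5 in saline replicate 1, 2 in CFA6D replicate 4, 1 in CFA6D replicate 5 and 0 in the CFA3D libraries, none of them members. Oacyl was the only gene at 1 FPKM or more in both CFA6D replicates 4 and 5 that was over 2-fold above each of the other 7 libraries there.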
